A study of Mus musculus with 3 samples.

Results

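Expression of 10 genes of adipocyte identity and lipid storage was followed in healing mouse skin: Pparg, Cebpa, Adipoq, Fabp4, Lpl, Plin1, Cidec, Lep, Cd36 and Nnat. They were picked by symbol from the array platform's annotation as known genes of fat cells, and each was measured by 1 probe set, giving 10 of 19938 named genes. The tissue came from the backs of C57Bl/6 mice, an inbred strain, aged 6 weeks, in which a wound of 1.5 cm2 had been cut through the whole skin, so that epidermis and dermis were lost. Healing tissue was dissected on day 10, day 12 or day 14 after wounding, with intact skin and edge follicles avoided, and tissue of 3 mice was combined into 1 pool and 1 array per day. No unwounded skin was analysed here, all groups share strain, age and wound, and no replicate error exists, so every difference below compares single pools and has no test. Values are the deposited log2 expression values, which run from 4.37 to 14.09, and 1 unit is a 2-fold difference. The step from day 10 to day 12 is called the first interval, that from day 12 to day 14 the second interval, and that from day 10 to day 14 the whole span; a positive difference means a higher value on the later day.

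Fat cells of the skin form a layer beneath the dermis and surround hair follicles, and they regrow in some large mouse wounds. Adipocyte differentiation is driven by the transcription factors encoded by Pparg and Cebpa, which maintain each other's expression and switch on genes for fatty acid uptake (Lpl, Cd36, Fabp4), for the coat of the lipid droplet (Plin1, Cidec) and for secreted hormones (Adipoq, Lep). Several of these genes are not confined to fat: macrophages express Pparg, Lpl, Cd36 and Fabp4, capillary endothelium expresses Cd36 and Fabp4, and sebaceous cells and keratinocytes use Pparg or Cebpa. Adipoq, Plin1, Cidec and Lep are the members most restricted to fat cells.

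The 10 genes fell into 3 kinds. Pparg, Cebpa, Lpl, Cd36 and Fabp4 lay above the level filter on all 3 arrays; that filter is 8.36, the median over named genes of each gene's highest value. The 4 genes most restricted to fat, Adipoq, Plin1, Cidec and Lep, lay below it on every array and differed between any pair of days by at most 0.10. Nnat reached the filter on 1 array, day 10, and was lower on each later array. Thus 6 members reached the filter and 4 did not, and all 10 are counted in what follows, so that no gene enters by its value on 1 day.

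**Figure D1:**
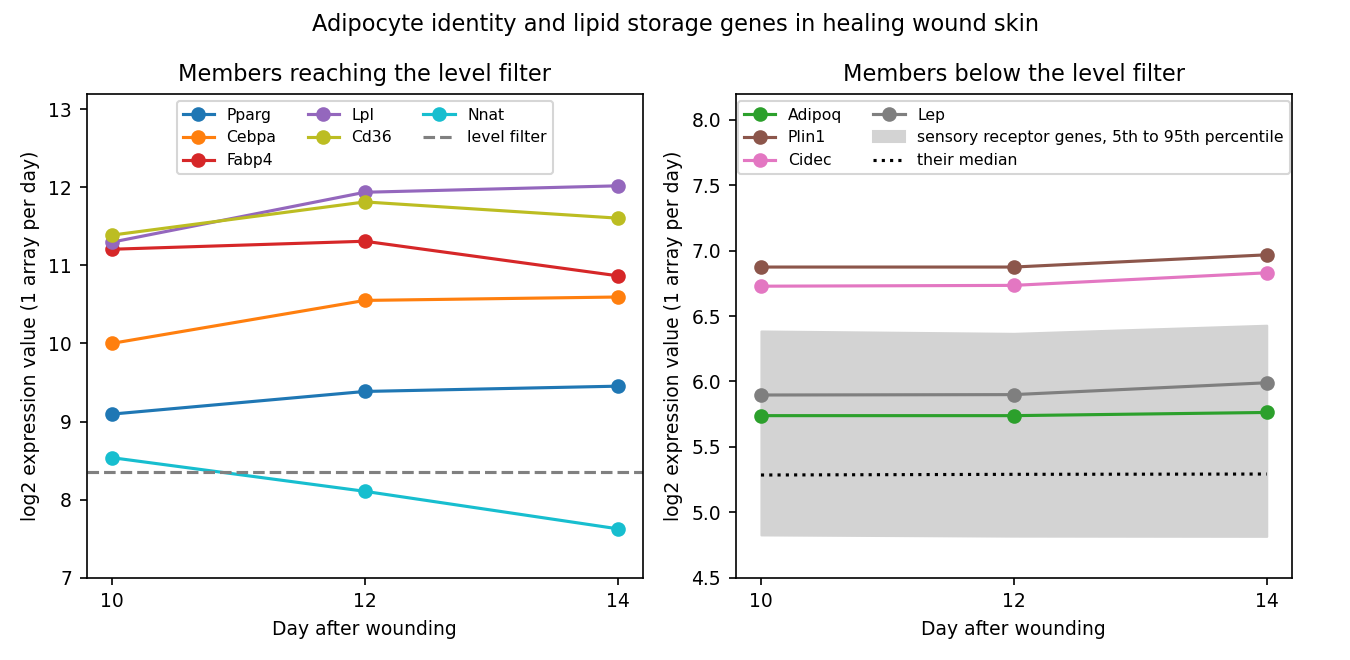
Log2 expression value of each member (y axis) against day after wounding (x axis), 1 array per day, with members reaching the level filter of 8.36 on the left and the others on the right. The grey band spans the 5th to 95th percentile of 1185 sensory receptor genes and the dotted line is their median; Adipoq and Lep lie inside the band, Plin1 and Cidec lie above it, and in the left panel Nnat is the gene that crosses the filter.

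Promoter sequences were looked up for the members because Pparg and Cebpa were both higher on the later days while the genes most restricted to fat stayed low. RefSeq entries on GRCm38.p6 were found for 8 of 10 members, and not for Fabp4 and Lpl. Each sequence shown is the 250 bases before a start, 5′ to 3′ on the strand of the gene. Capitals mark matches, on both strands, to any of 5 short motifs. The core promoter motif was TATAAA. The motif of the factor NF-Y was CCAAT, and that of Sp1 and related factors, the GC box, was GGGCGG. The motif of C/EBP factors was TTGCNNAA. The half-site of nuclear receptors, the class of Pparg, was AGGTCA. No marked match overlapped another in the windows shown. For Pparg, which has alternative starts, starts 1 and 3 of 3 listed starts are shown, with Cebpa beside them, and Adipoq and Plin1 stand for the restricted genes.
Pparg start 1, chr6:115360894-115361143, + strand: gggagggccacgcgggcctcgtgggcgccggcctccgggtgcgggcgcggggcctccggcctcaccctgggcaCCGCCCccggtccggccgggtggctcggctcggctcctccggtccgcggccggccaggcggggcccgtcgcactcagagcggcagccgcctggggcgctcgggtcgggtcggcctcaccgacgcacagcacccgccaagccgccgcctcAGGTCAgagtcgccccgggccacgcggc
Pparg start 3, chr6:115421816-115422065, + strand: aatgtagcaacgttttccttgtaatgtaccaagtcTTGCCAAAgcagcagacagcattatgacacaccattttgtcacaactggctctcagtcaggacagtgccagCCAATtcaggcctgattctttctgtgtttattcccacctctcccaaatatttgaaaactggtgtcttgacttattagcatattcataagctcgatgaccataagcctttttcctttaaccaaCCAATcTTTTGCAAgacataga
Cebpa, chr7:35119043-35119292, + strand: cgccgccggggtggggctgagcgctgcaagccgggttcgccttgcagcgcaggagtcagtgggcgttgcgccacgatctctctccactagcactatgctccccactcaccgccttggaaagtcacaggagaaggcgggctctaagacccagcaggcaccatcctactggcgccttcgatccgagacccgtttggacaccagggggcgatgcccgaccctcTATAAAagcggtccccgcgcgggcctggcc
Adipoq, chr16:23146286-23146535, + strand: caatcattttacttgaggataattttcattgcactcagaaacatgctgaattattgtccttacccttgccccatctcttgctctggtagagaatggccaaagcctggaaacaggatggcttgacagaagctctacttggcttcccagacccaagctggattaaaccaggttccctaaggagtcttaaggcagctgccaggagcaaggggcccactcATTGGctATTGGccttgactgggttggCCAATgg
Plin1, chr7:79732777-79733026, - strand: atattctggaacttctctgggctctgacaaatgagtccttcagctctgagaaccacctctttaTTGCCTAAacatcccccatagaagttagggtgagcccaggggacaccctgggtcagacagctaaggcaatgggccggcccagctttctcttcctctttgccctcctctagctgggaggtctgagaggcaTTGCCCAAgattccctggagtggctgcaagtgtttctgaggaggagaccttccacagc

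The starts of Pparg differed in make-up. Start 1 had a GC content of 82.4%, 1 GC box and 1 half-site beginning 28 bases before the start. Start 3 had a GC content of 40.8%, 2 NF-Y motifs and 2 matches to the C/EBP motif, 1 of them 16 bases before the start. Start 2, which is not shown, had a GC content of 63.6% and the most kinds of motif among the members' windows, 4 of 5. Its core promoter motif, which matched on the opposite strand, lay 29 bases and its half-site 9 bases before the start. The Cebpa window had a GC content of 66.4% and a core promoter motif 30 bases before the start. Adipoq held 3 NF-Y motifs within the last 34 bases, and Plin1 held 2 matches to the C/EBP motif. Over 32817 promoter windows of the same length, 12.4% held the core promoter motif, 33.8% the NF-Y motif, 32.7% the GC box, 9.57% the C/EBP motif and 14.0% the half-site. A match describes letters and not a bound site. The single probe set of Pparg gives 1 value per array, and the use of its starts was not analysed here.

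The factors were measured first. Pparg, the nuclear receptor required for fat cell formation, had values of 9.10, 9.39 and 9.45 on days 10, 12 and 14. The first array was the low one, with a difference of 0.29 over the first interval and 0.07 over the second. Cebpa, a leucine zipper factor of adipocytes and of differentiating keratinocytes, stood at 10.00, 10.55 and 10.59 on the same days. Its difference was 0.55 over the first interval and 0.04 over the second. Over the whole span Pparg was 1.28-fold higher and Cebpa 1.51-fold higher.

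Genes of fatty acid supply moved less uniformly. Lpl, the lipase that frees fatty acids from circulating triglyceride, stood at 11.30, 11.94 and 12.02. It was 1.56-fold higher on day 12 than on day 10 and 1.65-fold higher on day 14, the largest increases among the members. Cd36, a scavenger receptor that takes up fatty acids, stood at 11.39, 11.81 and 11.60, so that day 12 was its highest array. Fabp4, a fatty acid binding protein of fat cells, macrophages and endothelium, stood at 11.21, 11.31 and 10.87. Its day 14 value was the lowest of the 3 and 1.36-fold lower than on day 12. Over the second interval Lpl therefore differed by 0.08, Cd36 by −0.21 and Fabp4 by −0.44.

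The paralog Fabp5, the fatty acid binding protein of keratinocytes, was measured by 2 probe sets. Their mean was 12.99, 13.07 and 13.02, and over the second interval its probe sets gave −0.06 and −0.03 where Fabp4 gave −0.44.

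The lipid droplet and hormone genes gave little change at low values. Plin1, which coats the large droplet and gates lipolysis, stood at 6.87 on day 10, at exactly the same value on day 12, and at 6.97 on day 14. Cidec, which fuses droplets into a single large one, stood at 6.73, 6.73 and 6.83. Adipoq, the gene of the hormone adiponectin, stood at 5.74, 5.74 and 5.76, equal on the first 2 arrays. Lep, which encodes leptin, stood at 5.90, 5.90 and 5.99. All 4 were highest on day 14, by 0.02 for Adipoq and by 0.09 to 0.10 for Lep, Plin1 and Cidec against day 10.

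How low these values are was described with 1185 olfactory, vomeronasal and trace amine receptor genes, a set chosen after the values were seen and made up of genes used by sensory neurons of the nose. Their median was 5.29 on each array, with 5th to 95th percentiles of 4.83 to 6.39 on day 10. On day 10, 81.6% of these receptor genes lay below Adipoq, 86.3% below Lep, 97.6% below Cidec and 98.2% below Plin1. Probe sets differ in brightness of their own, so this places the values only roughly, and detection per probe set is unknown. The receptor genes also gave a scale for small differences. Over the whole span the 5th to 95th percentile of their differences was −0.04 to 0.11, and Adipoq, Lep, Plin1 and Cidec at 0.02, 0.09, 0.09 and 0.10 lay inside it. Over the second interval it was −0.01 to 0.0932, and Plin1 at 0.0934 and Cidec at 0.0960 lay just outside.

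Nnat, an imprinted gene that encodes the small membrane protein neuronatin and is expressed in adipose tissue and nervous tissue, went the other way. It stood at 8.54, 8.11 and 7.63 on the 3 days. Each step had nearly the same size, −0.43 and −0.48, and the day 14 value was 1.88-fold below that of day 10, the widest range of any member. Blcap, the gene within which Nnat lies, held 9.17 on all 3 arrays, a difference of exactly 0. Equal values were common in this table: 40.0% of named genes were equal on day 10 and day 12, so that 0.00 is not a precise measure of no difference.

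Among genes above the filter, the pairs of differences nearest to that of Nnat belonged to Havcr2, Piezo2, Tmem26 and Tmem45b. Likeness was the Euclidean distance over the differences of the first and second interval, and it rests on 3 arrays. Havcr2, the gene of an inhibitory receptor of T cells and myeloid cells, was closest at 0.03 and stood at 9.93, 9.48 and 9.03. Piezo2, a mechanically gated ion channel gene, stood at 9.66, 9.25 and 8.76. Of the 9969 genes above the filter, Nnat included, 111 others lay within a distance of 0.2, so Nnat was not alone in this pattern.

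Counts of the members were read against all 19938 named genes. Over the first interval, 7 members were higher, 1 was lower and 2 were equal, where 25.5% of named genes were higher and 34.5% lower. Of the 7, Cidec and Lep were higher by under 0.01. When arrays were centred on their medians or quantile normalized, 5 members were higher and 5 lower, since the values near 0 changed sign, while Pparg, Cebpa, Lpl, Cd36, Fabp4 and Nnat kept their directions. Lpl alone was at least 1.5-fold higher, against 2.33% of named genes, and no member was at least 1.5-fold lower, against 0.958%. The median difference of the 10 members was 0.054, and that of all named genes was 0.00.

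In the second interval 7 members were higher and 3 lower, with 32.7% and 30.8% among named genes. No member reached 1.5-fold in either direction, where 0.271% of named genes were that much higher and 0.712% that much lower. The 3 lower members, Nnat, Fabp4 and Cd36, had larger differences than any of the 7 higher ones, of which Cidec was the largest at 0.10. The median was 0.056 over the 10 members and 0.00 over named genes. It was −0.082 over the 6 members that reached the filter and 0.044 over the 5 that reached it on all 3 arrays, so its sign depended on which members were counted.

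For the whole span, 8 members were higher and 2 lower, where 34.9% of named genes were higher and 35.6% lower. Lpl and Cebpa were at least 1.5-fold higher, beside 3.11% of named genes, and Nnat was at least 1.5-fold lower, beside 2.98%. The median was 0.098 over members and 0.00 over named genes. In all, 7 members had their highest value on day 14 (26.6% of named genes did), Cd36 and Fabp4 had it on day 12 (8.78%), and Nnat had it on day 10 (28.6%). Each of the 7 exceeded its day 12 value by at most 0.10, within the spread between probe sets of 0.13 given below. Adipoq, Lep, Plin1 and Cidec, counted among both the 8 and the 7, lay below the level filter and differed by at most 0.10 over the whole span. No member differed by 2-fold in any comparison, where the shares of named genes at least 2-fold higher and lower were 0.787% and 0.13% in the first interval, 0.0552% and 0.196% in the second, and 1.25% and 0.512% over the whole span. The 3 comparisons share their arrays, so they are not independent of each other.

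**Figure D2:**
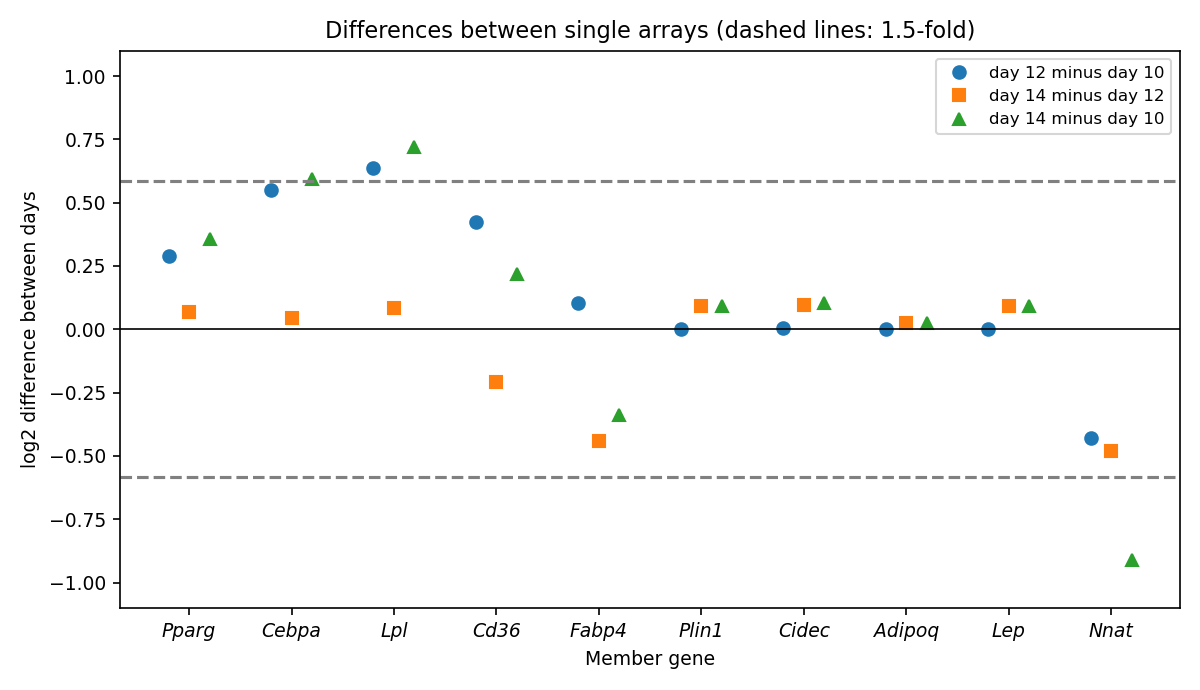
Log2 difference between days (y axis) for each member (x axis); circles are day 12 minus day 10, squares day 14 minus day 12 and triangles day 14 minus day 10, each from single arrays. Lpl lies above the dashed 1.5-fold line on day 12 and day 14 against day 10, Cebpa on day 14 against day 10, and Nnat lies below the lower line at −0.91.

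The only spread available was technical. In 472 genes above the filter with 2 probe sets, a probe set's difference deviated from the mean of the pair by up to 0.19, 0.13 and 0.22 at the 95th percentile, for the first interval, the second interval and the whole span. Pparg, Cebpa, Lpl and Cd36 were higher by more than this on day 12, as were 8.94% of named genes, and Nnat was lower, as were 11.3%. Fabp4, at 0.10, stayed within it. In the second interval Nnat, Fabp4 and Cd36 were lower by more than this spread, as were 11.4% of named genes, and 0 members were higher by more, beside 9.70%. Over the whole span Pparg, Cebpa and Lpl exceeded it, and Cd36 at 0.217 barely did, beside a limit of 0.215 (10.1% of named genes). Nnat and Fabp4 were lower by more, as were 14.6%. This spread lies within an array and says nothing of the spread between animals.

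Other genes of fat cell biology were taken from 12 lists, which together held 115 measured genes that are no members. The lists were chosen with earlier results of these data known, so their shares are descriptions and not tests. Of these 115, 7 (6.09%) were higher by 1.5-fold or more over the first interval and 3 (2.61%) were lower by as much, beside 2.33% and 0.958% of named genes. Over the whole span these numbers were 8 (6.96%) and 7 (6.09%), beside 3.11% and 2.98%. In the second interval 0 were higher and 2 (1.74%) were lower by this size, beside 0.271% and 0.712%. Genes above the level filter reached this size more often than all named genes. Of 9969 such genes, 416 were higher and 163 lower over the first interval, 32 and 119 over the second, and 525 and 517 over the whole span. Per list, members included, from 3 of 11 (thermogenic) to 11 of 12 (fatty acid synthesis) measured genes reached that filter. The part of expression level in the shares above was not tested. The median of the 115 was 0.00 in each comparison, as for all named genes. Single genes stood well away from that median in both directions.

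**Figure D3:**
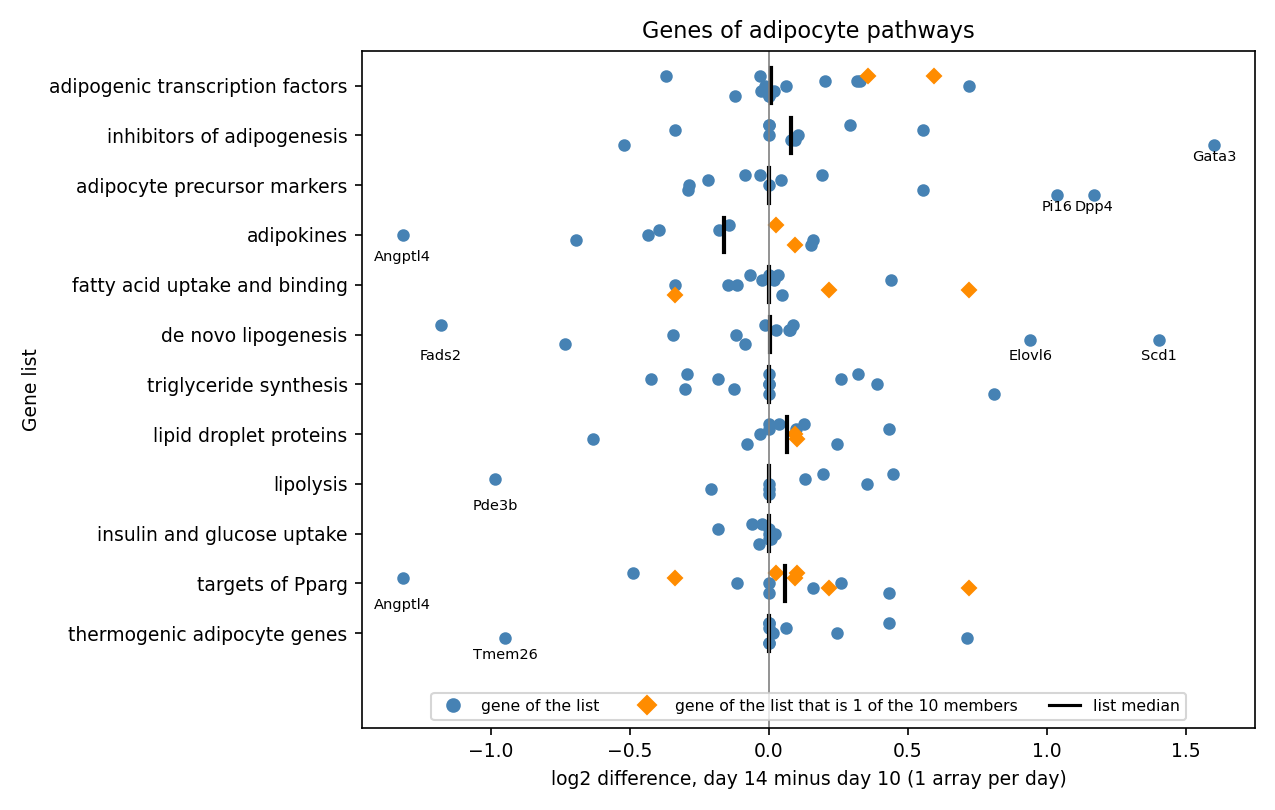
Log2 difference of day 14 minus day 10 (x axis) for each measured gene of 12 lists (y axis), with members in orange, other genes in blue and the list median as a black bar. List medians lie between −0.16 for adipokines and 0.08 for inhibitors of adipogenesis, while Gata3, Scd1, Dpp4, Pi16, Angptl4 and Fads2 lie more than 1 unit from 0.

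Among 16 adipogenic transcription factor genes, 8 were higher and 5 lower over the whole span, with a median of 0.01. Klf5, which encodes a zinc finger factor of early adipogenesis and of epithelia, was 0.72 higher at 10.83, 11.39 and 11.55 on the 3 days. Ebf3 differed by −0.37. Klf5 and Cebpa were the 2 genes of the list to reach 1.5-fold, and Pparg did not.

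Among 11 inhibitors of adipogenesis, Gata3, which encodes a GATA factor that restrains preadipocytes and also acts in epidermis and T cells, was highest on day 14, at 9.30, 10.62 and 10.90. Its difference from day 10 was 1.60. Dlk1, the gene of a preadipocyte protein that is lost as fat cells mature, stood at 9.54, 10.43 and 10.10. Wnt5a and Nr2f2 differed by −0.52 and −0.34, and the list median was 0.08, with 6 genes higher and 2 lower.

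Of 11 measured adipocyte precursor markers, 5 were higher and 5 lower over the whole span, with a median of 0.00. Dpp4, a peptidase gene of fascial and precursor fibroblasts, stood at 8.72, 9.68 and 9.89, a difference of 1.17. Pi16, which marks related fibroblasts, stood at 6.85, 7.46 and 7.89 and did not reach the filter. Pdgfrb, which encodes a receptor of perivascular cells and precursors, differed by −0.29.

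Adipokine genes had a median of −0.16 over 10 measured genes across the whole span, with 4 higher and 6 lower. It was −0.29 over the 8 genes that are no members. Angptl4, which encodes an inhibitor of the lipase made from Lpl and is a target of Pparg, stood at 10.60, 9.69 and 9.28. The difference of −1.32 was opposite in sign to that of Lpl, 0.72. Apln, Rbp4 and Rarres2, which encode the secreted proteins apelin, retinol binding protein and chemerin, differed by −0.69, −0.44 and −0.39. Retn, the gene of the adipocyte hormone resistin, was named after its values were seen and stood at 6.13, 6.13 and 6.29.

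Fatty acid uptake and binding genes split evenly, with 6 of 13 higher and 6 lower over the whole span, and 3 of the 13 are members. Slc27a4, a fatty acid transport protein gene of epidermis, differed by 0.44, and Lmf1, whose product folds lipases, by −0.34. Genes of fatty acid synthesis lay further apart, on both sides of 0. Scd1, the desaturase gene of fat and sebaceous cells, stood at 10.45, 11.81 and 11.85, and Elovl6, an elongase gene, at 10.54, 11.45 and 11.48. Fads2 and Fads1, desaturase genes for polyunsaturated fatty acids, differed by −1.18 and −0.74 over the same days. The list of 12 genes thus had a median of 0.01, with 2 genes past 1.5-fold in each direction.

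In triglyceride synthesis Dgat2, which encodes an enzyme of the last step, was 0.81 higher on day 14 than on day 10. Agpat3 and Gpam differed by 0.39 and 0.32 and Agpat2 by −0.43, and the median of 13 genes was 0.00. Among 12 lipid droplet genes the median was 0.07. Plin2, the perilipin of most cell types including macrophages, stood at 12.01, 11.90 and 11.37, a difference of −0.63, whereas its paralog Plin1 differed by 0.09. Cidea, a paralog of Cidec found in brown fat and sebaceous cells, stood at 6.77, 7.20 and 7.20, and Fitm1 and Fitm2 differed by 0.25 and 0.13.

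Lipolysis genes had a median of 0.00 over 9 genes. Pde3b, whose product damps lipolysis on insulin signals, differed by −0.99. Abhd5 and Lipe, which encode the lipase co-activator CGI-58 and hormone-sensitive lipase, differed by 0.45 and 0.35, and Prkar2b, which encodes a regulatory subunit of protein kinase A, differed by −0.21. In the list of insulin response and glucose uptake none of 9 genes reached 1.5-fold, and the largest difference was −0.18, for Cav1. Akt2, Irs1 and Irs2 differed by −0.03, −0.04 and −0.06. Among 11 thermogenic adipocyte genes, Tmem26 differed by −0.95 and Dio2, Cidea and Tbx1 by 0.71, 0.43 and 0.24. Dio2, at 6.68, 7.04 and 7.39, and Cidea did not reach the filter. Ucp1, the uncoupling protein gene of brown fat, was named after its values were seen and held 5.89 on all 3 arrays.

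Known targets of Pparg had no common direction. Of 14 measured targets, 6 of them members, 8 were higher and 4 lower over the whole span, with a median of 0.06 (0.00 without the members). Lpl, the highest, and Angptl4, the lowest, were the 2 targets past 1.5-fold. Pdk4, which encodes a kinase that spares glucose, differed by −0.49.

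In a bulk sample, fewer cells of a type and less RNA per cell cannot be told apart. The members that were well above the filter are shared with other cell types, so marker lists for those were read on the same arrays. Macrophage markers had 10 of 12 genes higher and 1 lower over the first interval, with a median of 0.18. Over the second, 11 of 12 were lower, with a median of −0.22. The mean level of the list was 10.87, 11.10 and 10.73 on the 3 days. It was highest on day 12, as were Cd36, Fabp4 and the mean of the sebocyte list below. Of the 12 genes 11 reached the filter, and Cd163, named after its values were seen, held 6.09 on all 3 arrays. Cd14, an endotoxin receptor gene, and Msr1, a scavenger receptor gene, differed by −1.37 and −0.84 over the second interval, while C1qb and C1qc differed by −0.23 and −0.27. The part of macrophages in the values of Cd36, Fabp4, Lpl and Pparg was not tested.

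Endothelial markers were lower on day 12 in 12 of 12 genes, with a median of −0.34, and lower in the second interval in 9 of 12, with a median of −0.11. All 12 reached the filter, and their mean level was 10.65, 10.23 and 10.13. Plvap, Sox18, Esam and Tie1 differed by −0.91, −1.02, −0.70 and −0.61 over the whole span. Fabp4 and Cd36 differed by 0.10 and 0.425 over the first interval, when all of these markers were lower. For Fabp4 this lay within the spread between probe sets of 0.19. Both members were lower in the second interval, as were most of the markers. The part of endothelium in the values of Fabp4 and Cd36 was not tested.

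Sebocyte markers were higher on day 12 in 10 of 11 genes, with a median of 0.81, and lower in the second interval in 9 of 11, with a median of −0.31. Of the 11, 7 reached the filter, and the mean level of the list was 7.90, 9.04 and 8.75. Over those 7 the median was 1.82 in the first interval and 1.76 over the whole span, beside 0.81 and 0.51 over all 11. The filter takes a gene's highest value, and Far2, Fa2h, Elovl3 and Scd3 lay below it on day 10. Far2 and Fa2h reached it on both later days, Elovl3 and Scd3 on day 12 alone. The larger medians over the 7 are therefore partly built in by the filter. Fa2h, Krt79, Far2 and Elovl3 differed by 1.95, 1.92, 1.77 and 1.76 over the whole span. Cornified epidermis markers were higher in 10 of 10 genes on day 12, with a median of 0.70, and in 9 of 10 in the second interval, with a median of 0.12, at mean levels of 11.16, 12.08 and 12.27. Flg2, Krt77, Lce1f and Lce1b differed by 2.66, 2.42, 1.42 and 1.18 over the whole span. Cebpa, Pparg and Lpl, like the cornified list, were lowest on day 10 and had a smaller difference in the second interval than in the first. How far keratinocytes or sebaceous cells set the values of Cebpa and Pparg was not tested.

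**Figure D4:**
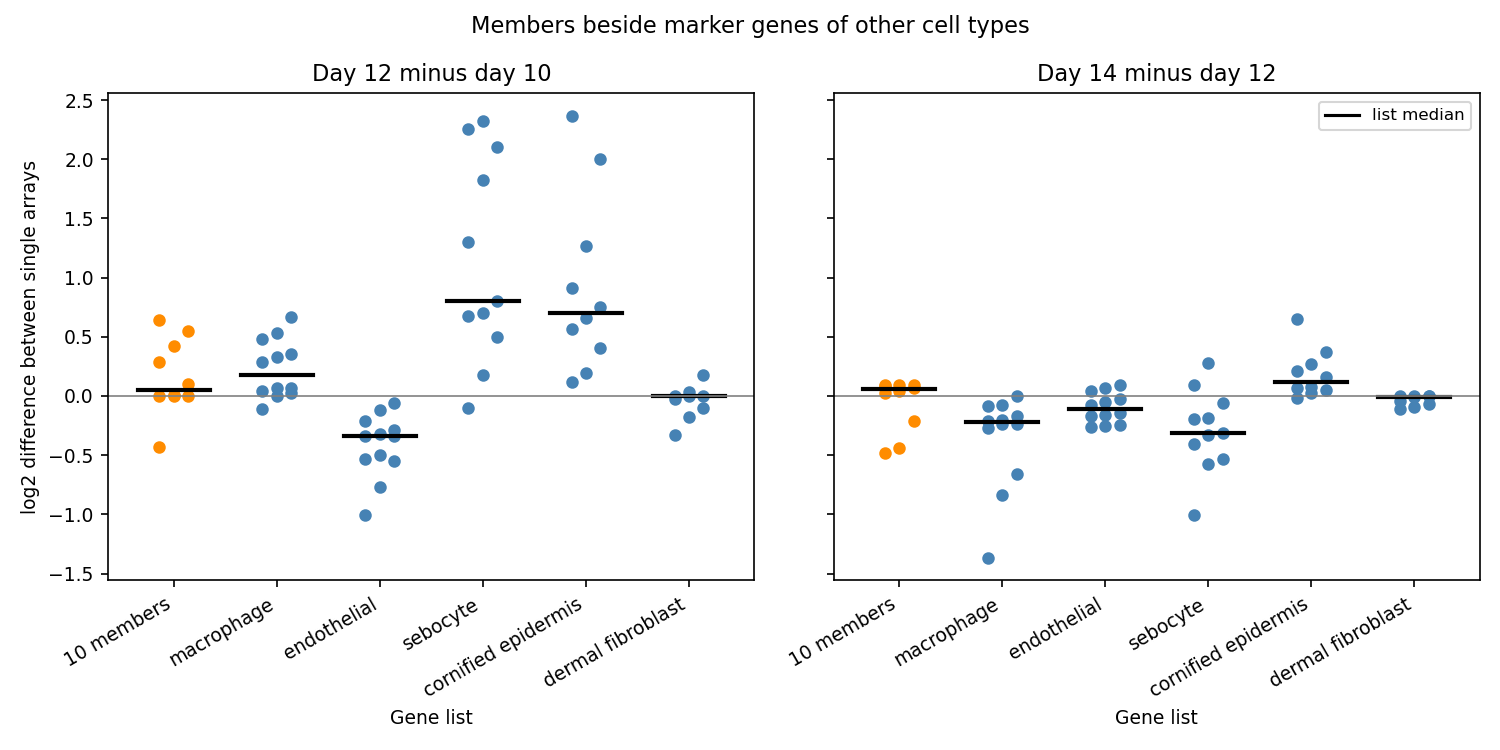
Log2 difference between single arrays (y axis) for the 10 members (orange) and for marker genes of other cell types (blue), with day 12 minus day 10 on the left and day 14 minus day 12 on the right; black bars are list medians. On day 12 the member median is 0.054 beside 0.81 for sebocyte and 0.70 for cornified epidermis markers and −0.34 for endothelial markers; both panels use the day 12 array.

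The labelled tissue, wound epidermis and dermis, was present by its markers: Col1a1, the main dermal collagen gene, stood at 13.48, 13.48 and 13.49, Krt14 of basal keratinocytes at 13.30, 13.32 and 13.31, and Krt10 of differentiated keratinocytes at 13.32, 13.51 and 13.58. Dermal fibroblast markers had a median of 0.00 in the first interval and of −0.01 in the second, with Thy1, Pdgfra and Lum at −0.42, −0.29 and −0.17 and Dpt at 0.13 over the whole span. The genes that define mature fat cells, Adipoq, Plin1, Cidec and Lep, lay below the filter on all 3 arrays, so that the label of dermal adipocyte genes names what these genes are known for and not a cell type shown by these arrays. Nerve and muscle markers are given for Nnat, which nerves also express. Of 7 measured Schwann cell markers 6 were higher over the whole span, with a median of 0.25, and Cdh19, Mbp, Sox10 and Ngfr differed by 1.33, 0.61, 0.59 and 0.25, whereas Nnat differed by −0.91. Of 12 skeletal muscle markers 4 were higher and 5 lower, with a median of 0.00. Only 2 of them, Acta1 and Des, reached the filter, and their median was −0.71 in the first interval and −0.77 over the whole span. Acta1 reached it on day 10 alone, its highest array, so these medians of 2 genes are partly built in by the filter. Over that span Des, Myl1, Acta1 and Mb differed by −1.04, −0.93, −0.50 and 0.21.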

How the data were processed

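Total RNA of pooled wound tissue (3 mice per day, 1 one-colour array per day; days 10, 12 and 14) was amplified from 250 ng and labelled with biotin, per the labels' protocols. The deposited table holds 1 log2 value per probe set and array for 35556 probe sets; the submitters' processing notes list RMA and Partek 6.6 but not what each did, and the log2 scale was taken from the values. Array medians were 7.53, 7.55 and 7.53, and no further scaling was applied. Median summaries over probes can return equal values: 23.1% of probe sets were equal on all 3 arrays. No scanner output was used here, and depth has no counterpart on arrays; their number limits the precision.

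The platform's annotation gave 1 symbol for 21789 probe sets; several symbols (1621) or no entry (12146) were left out. Matching by Entrez identifier changed 0 symbols. Probe sets were averaged to 19938 genes. Differences between days, counts past 1.5-fold or 2-fold, and medians were computed (Python 3.11.15, pandas 2.3.3; limma 3.58.1 for cyclic loess), with no test because each day has 1 array. Counting was tested on simulated data. The members and the 19 other lists were chosen with earlier results of these data known; of each list the 4 genes with the largest difference between day 14 and day 10 were named, with Fabp5, Plin2, Blcap, Col1a1, Krt10 and Krt14 besides, and the 4 genes above the filter whose differences lay nearest to those of the member with the widest range. Genes outside this rule are said to have been named after their values were seen. Alternatives were centring, quantile and cyclic loess normalization, the brightest probe set, 2 level filters and a 2-fold threshold; leaving out Nnat, or genes not above the filter on all arrays, was chosen after seeing the data. No genome build is given in the sources used here for the array values; promoter coordinates are those of RefSeq on GRCm38.p6.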

Additional observations from a re-analysis of the deposited data

How the results depend on the processing

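With 1 array per day no spread between animals can be given, and no paired analysis was possible because each group has 1 sample and the labels give no replicate numbers. Each of the 90 member differences recomputed under centring, quantile normalization and cyclic loess stayed within the probe-set spread of its value above. Centring moves every gene alike, by −0.013, 0.025 and 0.012 for the first interval, the second and the whole span. These shifts are smaller than the spread, so for centring that outcome was fixed in advance. The other settings cannot change a single gene with 1 probe set. Counts and medians over members depended on which members were kept. With the filter on the highest value (6 members), the median was 0.36 over the first interval (day 10 to day 12) and −0.082 over the second (day 12 to day 14), and 3 members were higher in the second and 4 over the whole span. With the filter on the mean in the top 25% (4 members), medians were 0.49, −0.082 and 0.41 for the first interval, the second and the whole span; 4, 2 and 3 members were higher. There, 0 were lower in the first interval, and 1 was lower over the whole span, 0 of them by 1.5-fold. With the 5 members above the filter on all arrays, the medians were 0.43, 0.044 and 0.36 for the first interval, the second and the whole span. Fewer genes enter in each of these. Lower members on day 12 numbered 5 after centring, 5 after quantile normalization and 3 after cyclic loess. At 2-fold, 0 members were higher on day 12, and 0 higher and 0 lower on day 14, against day 10. Of 339 recomputed list medians, 27 moved by more than the probe-set spread, all under the level filters; the filter on the top 25% left 0 muscle genes.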
